A study of Mus musculus with 9 samples.

Results

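Platelet-derived growth factor (PDGF) and epidermal growth factor (EGF) signalling genes were followed in orofacial tissue of mouse embryos, from which the face and palate form. The genes chosen were Pdgfa, Pdgfb, Pdgfra, Pdgfrb, Tgfa, Hbegf, Egfr and Erbb2, and every probe set that the array annotation gives to 1 of them alone was taken. This gave 11 probe sets of 7 genes, out of 10833 single-symbol probe sets of 8251 genes. Erbb2 had no such probe set and is not described. Total RNA of gestation day (GD) 12, GD13 and GD14 was hybridized to 3 one-colour arrays per day, 9 in all, numbered as replicates 1 to 3 in the titles. The labels used here name no strain, genotype or treatment, and do not say whether the arrays of a day came from separate litters, so p-values measure only the spread between these samples.

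PDGFs are dimeric ligands that bind receptor tyrosine kinases. PDGF-A homodimers act through the alpha receptor encoded by Pdgfra, while PDGF-B can engage both the alpha receptor and the beta receptor encoded by Pdgfrb. In the mouse face, Pdgfra is carried by neural crest-derived mesenchyme and is needed for midface and palate development, and Pdgfrb is best known from pericytes and other perivascular cells. Transforming growth factor alpha (Tgfa) and heparin-binding EGF-like growth factor (Hbegf) are made as membrane-bound precursors, are released by proteases and bind the EGF receptor (Egfr), which is known from epithelia.

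No difference between days of a PDGF or EGF ligand or receptor passed the test. Pdgfa and the bright Pdgfra probe set were far above the filter intensity on all 9 arrays, and the 95% intervals of their GD14 to GD12 ratio ended at 0.677 and 1.25 for Pdgfra and at 0.733 and 1.26 for Pdgfa. Pdgfrb was lower on GD14 than on GD12 in all 3 arrays (ratio 0.777), but this difference did not pass the test. Values of these 2 days did not overlap in 22.3% of all tested probe sets. Pdgfb and Egfr were dim, and their intervals for GD14 against GD12 were wide. For Pdgfb the interval of the ratio ran from 0.462 to 2.74. For Egfr it ran from 0.403 to 1.42 on 101840_at and from 0.675 to 2.65 on 101842_g_at. Changes in either direction within these bounds are not excluded.

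The tests used the deposited intensities, which the authors had scaled between arrays, as log2(intensity + 3), and probe sets averaging no more than the log2 value of an intensity of 10.4 were left out. This left 9316 probe sets, among them 8 of the 11 described here, standing for 6 genes. Tgfa and the dimmest probe sets of Pdgfra and Egfr fell under this filter. limma with Benjamini-Hochberg adjustment over all 9316 gave 0 of 8 member probe sets with an adjusted p under 0.05 in each comparison. Among all tested probe sets the share past this threshold was 0.644% for GD13 against GD12, 0.0429% for GD14 against GD13, 4.3% for GD14 against GD12 and 2.59% in the F-test over the 3 days. With shares this small, 0 of 8 does not set these genes apart from the others. At an unadjusted p under 0.05 the count was also 0 of 8 in each comparison, where all probe sets had 11%, 7.18%, 17.5% and 14.2%. The difference between the second and the first daily step was called for 0 of 9316 probe sets, and 453 of them (4.86%), but 0 of the 8, had an unadjusted p under 0.05. limma with trend and robust variances called 2 of the 9316 there, and 0 of the 8.

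**Figure D1:**
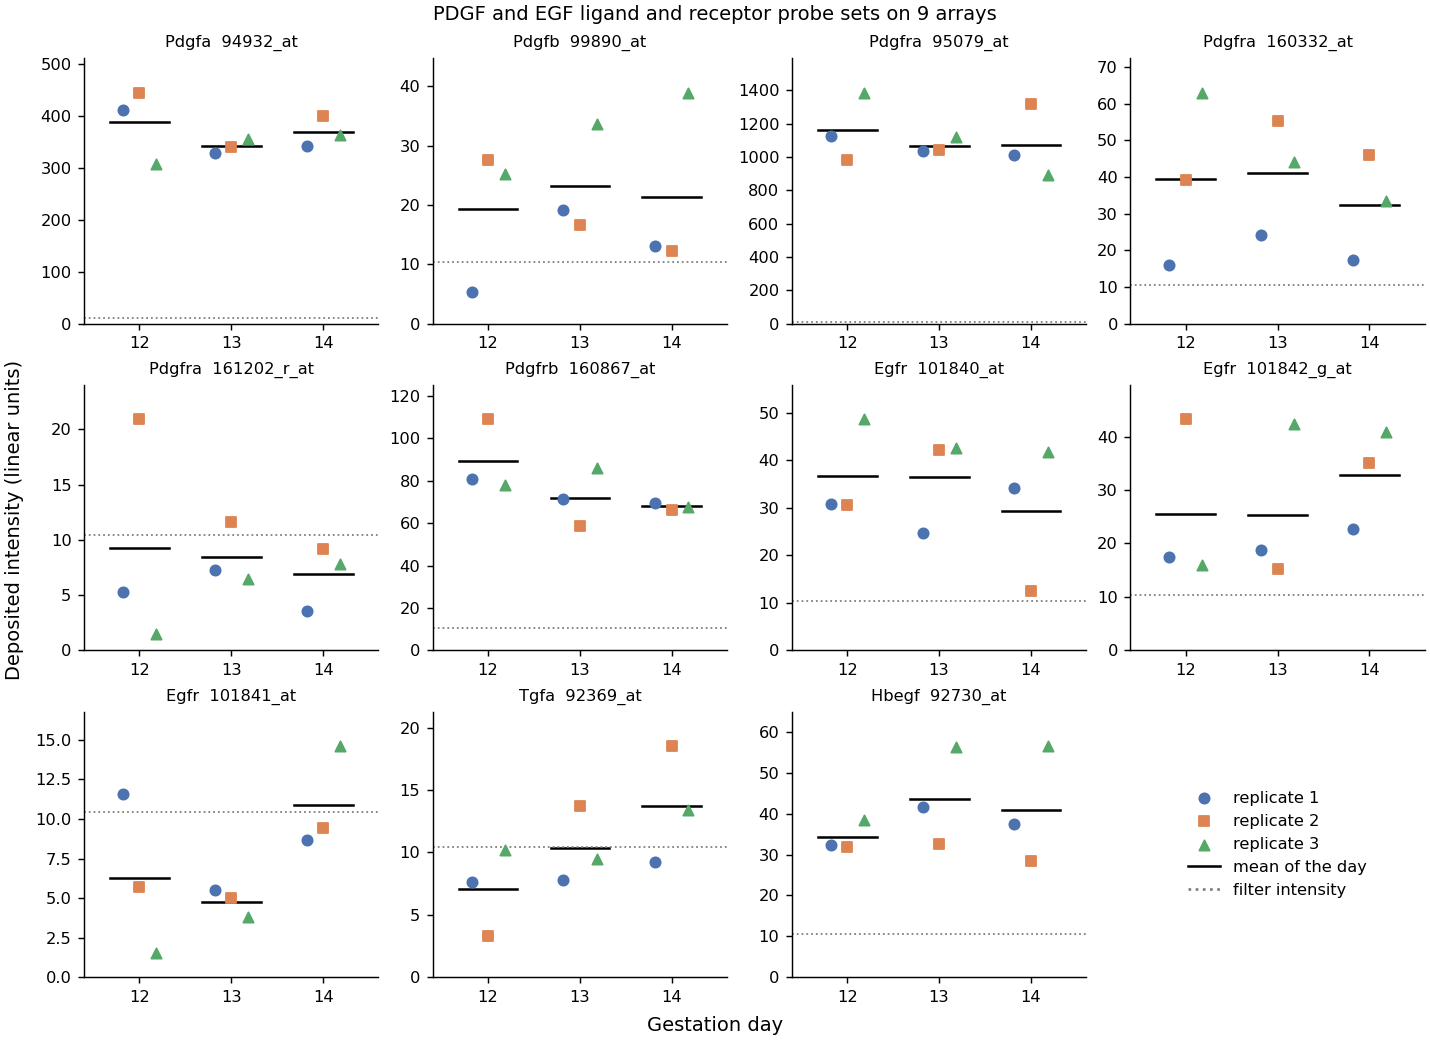
Deposited intensity (linear units, from 0) of the 11 member probe sets against gestation day, 1 point per array, with symbols for the replicate number, a black bar for the mean of the day and a dotted line at the filter intensity of 10.4. Pdgfra 95079_at stayed between 891.3 and 1385.4 and Pdgfa between 308.0 and 444.3. Of the 8 tested member probe sets only that of Pdgfrb has all GD14 values under its GD12 values. Values of these days did not overlap in 22.3% of all tested probe sets.

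Of facial mesenchyme markers 13 of 13 with a probe set had a mean above the filter intensity. Among 14 oral epithelium markers 11 did, and the basal keratins Krt5, Krt14 and Krt15 were under it. Of all 8251 single-symbol genes 6861 had a probe set above it, so such counts, here and below, do not show that a cell type was present. Array medians lay between 47.15 and 56.95. The actin control probe sets at the ends of the transcript gave a 3' over 5' ratio, which rises when RNA is degraded or labelled short. It was 1.42, 1.25 and 1.37 on the third arrays of GD12, GD13 and GD14, and 1.54 to 2.44 on the other 6 arrays. Among those 6 it rose with each later day, from 1.54 through 2.09 to 2.44 for replicate 1, and from 1.76 through 2.23 to 2.29 for replicate 2. The same ratio for Gapdh was at most 1.13 on these arrays before GD14, then 1.29 for replicate 1 and 1.26 for replicate 2. Day and this measure of RNA or labelling quality were thus partly confounded, and the reported fits did not adjust for it. Arrays that shared a replicate number also shared variation, with correlations of 0.189 to 0.420 between their deviations from the day means.

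Pdgfa encodes the PDGF-A chain, made in the face mainly by epithelium. Its probe set 94932_at had intensities of 410.7, 444.3 and 308.0 on GD12, of 328.7, 339.8 and 354.4 on GD13, and of 341.7, 399.9 and 362.5 on GD14. The GD12 arrays spanned the widest range and held both the lowest and the highest of the 9 values, so the groups overlapped throughout. Day means were 388 ± 71.0, 341 ± 12.9 and 368 ± 29.5 (SD, n = 3 each), in the order GD12, GD14, GD13 from high to low, and no neighbours in this order differed beyond their spread. The log2 difference was -0.06 (SE 0.17) for GD14 against GD12, with a limma adjusted p of 0.906, and -0.17 (SE 0.17) for GD13 against GD12, with an adjusted p of 0.778. Its sign depended on 1 array, since it was 0.05 for GD14 against GD12 without GD12 replicate 2 and -0.22 without GD12 replicate 3.

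Pdgfra encodes the alpha receptor. Its brightest probe set, 95079_at, had intensities of 1123.7, 978.6 and 1385.4 on GD12, of 1038.4, 1044.3 and 1122.1 on GD13, and of 1009.1, 1319.9 and 891.3 on GD14. Replicate 3 gave the highest value on GD12 and the lowest on GD14, and the GD13 arrays lay within the range of both other days. Means were 1163 ± 206, 1068 ± 46.7 and 1073 ± 221 (SD, n = 3 each). The highest of the 9 values was 1.55 times the lowest. The log2 difference was -0.12 (SE 0.20) for GD14 against GD12 (limma adjusted p = 0.822), -0.11 for GD13 against GD12 (adjusted p = 0.897) and -0.01 for GD14 against GD13 (adjusted p = 0.997). The GD14 to GD12 difference was -0.28 without GD14 replicate 2 and 0.14 without the third array of every day, so its sign is not settled.

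The other probe sets of Pdgfra were dim and did not follow the bright one array by array. Probe set 160332_at had 16, 39.2 and 63.0 at GD12, 24.2, 55.2 and 44.2 at GD13 and 17.3, 46.1 and 33.5 at GD14. Replicate 1 was the lowest of its day on all 3 days here, which was not so for 95079_at, where this held on 1 day. Its log2 difference for GD14 against GD12 was -0.18 (SE 0.50, limma adjusted p = 0.904). Probe set 161202_r_at, of a class for which the array maker relaxed its probe selection rules, exceeded the filter intensity on 2 of 9 arrays, and it had 20.9 on GD12 replicate 2 and 1.5 on GD12 replicate 3.

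The 250 bases before annotated starts of Pdgfra and Pdgfa are shown because this receptor and ligand bind each other and had narrow intervals between days. They are RefSeq sequences of build GRCm38.p6, 5′ to 3′ on the strand of the gene, at chr5:75152001-75152250 on the plus strand for Pdgfra and at chr5:138994945-138995194 and chr5:138994282-138994531 on the minus strand for 2 starts of Pdgfa. The annotated gene spans begin further upstream, at chr5:75151322 for Pdgfra and chr5:139000792 for Pdgfa, so these windows lie within the spans. Capitals mark GGGCGG, the core of the GC box bound by Sp1, or its reverse complement CCGCCC.
Pdgfra: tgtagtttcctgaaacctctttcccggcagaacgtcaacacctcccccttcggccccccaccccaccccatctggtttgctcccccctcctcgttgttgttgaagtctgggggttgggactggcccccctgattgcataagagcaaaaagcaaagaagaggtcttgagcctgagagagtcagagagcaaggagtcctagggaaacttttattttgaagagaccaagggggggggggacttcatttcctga
Pdgfa, upstream start: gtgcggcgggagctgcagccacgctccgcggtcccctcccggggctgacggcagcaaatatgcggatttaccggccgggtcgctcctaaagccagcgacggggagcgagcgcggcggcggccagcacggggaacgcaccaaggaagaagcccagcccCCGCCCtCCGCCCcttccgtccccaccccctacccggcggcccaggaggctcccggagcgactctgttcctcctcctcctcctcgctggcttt
Pdgfa, downstream start: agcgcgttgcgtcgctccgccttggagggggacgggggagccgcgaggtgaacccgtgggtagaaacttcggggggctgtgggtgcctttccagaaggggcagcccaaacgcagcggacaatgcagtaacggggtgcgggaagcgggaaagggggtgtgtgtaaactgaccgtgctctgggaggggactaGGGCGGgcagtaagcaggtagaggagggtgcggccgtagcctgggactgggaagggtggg
Promoter sequences were found for 4 of the 7 measured genes (Pdgfra, Pdgfa, Tgfa and Egfr), with 5 starts. Of these 5 windows, 4 held GGGCGG on either strand, as did 32.7% of all 32851 windows of the same length, and 0 of 5 held TATAAA on either strand, against 12.4% of all. Their GC content ranged from 54.4% for Pdgfra to 72.4% for the upstream start of Pdgfa, against a median of 52.4%. A match describes the letters only.

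Pdgfb encodes the PDGF-B chain, a product of endothelium and platelets that recruits pericytes. Its probe set 99890_at had 5.3, 27.6 and 25.2 at GD12, 19.1, 16.6 and 33.7 at GD13 and 13.0, 12.2 and 38.9 at GD14. The third arrays of GD13 and GD14 were well above the other arrays of their day, and the 3 days overlapped throughout. Means were 19.4 ± 12.2, 23.1 ± 9.24 and 21.4 ± 15.2 (SD, n = 3 each), and the log2 difference for GD14 against GD12 was 0.17 with a 95% interval from -1.11 to 1.45 (limma adjusted p = 0.920). Without GD12 replicate 1 it was -0.44, and without GD14 replicate 3 the difference for GD14 against GD13 was -0.69, against -0.21 with all arrays. The 10 endothelial markers with a probe set were all above the filter intensity, and their summed intensity ranged from 1313 to 1375 on GD12, from 1165 to 1409 on GD13 and from 1573 to 1718 on GD14. The lowest limma adjusted p among these 10 markers was 0.294 for GD14 against GD12. All 8 macrophage and megakaryocyte markers were above the filter. The macrophage genes C1qa, C1qb, Cd68 and Lyz2 rose between GD12 and GD14, while the megakaryocyte and platelet genes Pf4 and Gp9 did not pass (limma adjusted p = 0.571 and 0.982). The sum of all 8 was 559 to 618 on GD14, against 222 to 300 on GD12. The part of either list in the Pdgfb values was not tested.

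Pdgfrb encodes the beta receptor. Its probe set 160867_at had 80.6, 108.9 and 78.2 at GD12, 71.5, 58.5 and 86.1 at GD13 and 69.5, 66.3 and 67.8 at GD14. The GD14 arrays lay close together and all under the lowest GD12 array, while GD13 overlapped both. Such separation of GD14 from GD12 was seen in 1 of the 8 tested member probe sets and in 22.3% of all tested probe sets. For GD13 against GD12 and for GD14 against GD13 it was seen in 0 of 8, where all tested probe sets had 18.5% and 13%. Means were lower on each later day, at 89.2 ± 17.1, 72 ± 13.8 and 67.9 ± 1.60 (SD, n = 3 each), but neighbouring days did not differ beyond their spread. The log2 difference for GD14 against GD12 was -0.36 (SE 0.19, 95% interval from -0.80 to 0.07), with an unadjusted p of 0.0882 and a limma adjusted p of 0.372. It lay between -0.45 and -0.22 under the 20 alternative settings. Those that change only the filter, variance model, replicate block or groups fitted, or omit a GD13 array, could not turn its sign. For GD13 against GD12 the log2 difference was -0.30 (adjusted p = 0.623).

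The tested markers of pericytes and smooth muscle had a median log2 difference of 0.56 for GD14 against GD12, and whether they moved as 1 group was not tested. Of 9 with a probe set 7 were above the filter intensity. Of these, 2 rose between GD12 and GD14, the smooth muscle genes Acta2 and Tagln, while 0 fell. Over all 6861 tested genes 4.59% passed in this comparison. The sum over the 9 was 827 to 1142 on GD14, against 506 to 629 on GD12, with 615 to 679 on GD13. Most of this gap lay in Acta2, with a mean of 432 on GD14 and 130 on GD12, and Tagln, with 171 on GD14 and 75 on GD12. The other 5 tested markers did not pass: the log2 difference for GD14 against GD12 was -0.16 for Rgs5 and -0.11 for Notch3, and 0.56 for Abcc9, 0.30 for Kcnj8 and 1.23 for Des. The smooth muscle markers Myh11 and Cnn1 were under the filter. In whole tissue, fewer cells of a type and less RNA per cell cannot be told apart, and the part of these markers in the Pdgfrb values was not tested.

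**Figure D2:**
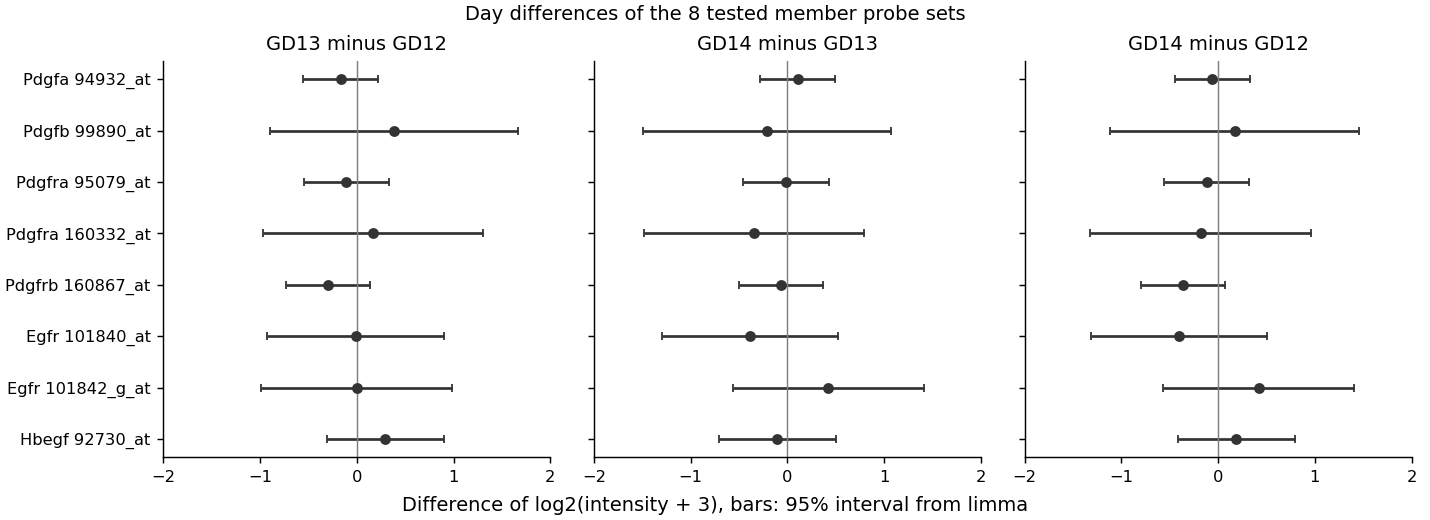
Differences of log2(intensity + 3) between days for the 8 tested member probe sets, with bars for the 95% interval from limma (6 residual degrees of freedom plus prior), 1 panel per comparison. Every interval crosses 0, and those of Pdgfa, Pdgfra 95079_at and Pdgfrb are narrower than those of Pdgfb, Egfr and Pdgfra 160332_at.

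Tgfa encodes an EGF receptor ligand of epithelia. Its probe set 92369_at had 7.6, 3.3 and 10.2 at GD12, 7.8, 13.7 and 9.5 at GD13 and 9.2, 18.5 and 13.4 at GD14. The means were higher on each later day, at 7.03 ± 3.48, 10.3 ± 3.04 and 13.7 ± 4.66 (SD, n = 3 each), but the days overlapped and 3 of 9 arrays exceeded the filter intensity. With no filter, limma gave a log2 difference of 0.76 (SE 0.33) for GD14 against GD12, with an unadjusted p of 0.0452 and an adjusted p of 0.345. No fold is given, since values this near the background depend on the added 3.

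Hbegf encodes the second EGF receptor ligand measured. Its probe set 92730_at had 32.3, 31.9 and 38.5 at GD12, 41.6, 32.7 and 56.3 at GD13 and 37.4, 28.5 and 56.5 at GD14. The third array was the highest and the second the lowest of its day on all 3 days. Means were 34.2 ± 3.70, 43.5 ± 11.9 and 40.8 ± 14.3 (SD, n = 3 each). The log2 difference was 0.19 (SE 0.27) for GD14 against GD12 (limma adjusted p = 0.792) and 0.30 (SE 0.27) for GD13 against GD12 (adjusted p = 0.751). With the actin ratio as a covariate these became 0.46 and 0.46, with adjusted p of 0.193 and 0.290, and without GD14 replicate 3 the first was -0.06.

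Egfr encodes the EGF receptor, and its probe sets did not point one way. Probe set 101840_at had 30.9, 30.7 and 48.6 at GD12, 24.8, 42.2 and 42.6 at GD13 and 34.1, 12.4 and 41.8 at GD14. Probe set 101842_g_at, whose name marks probes shared by a group of transcripts, had 17.4, 43.2 and 16 at GD12, 18.7, 15.2 and 42.3 at GD13 and 22.7, 35.0 and 40.9 at GD14. Arrays of 1 day differed more than the day means on both, and the days overlapped. The log2 difference for GD14 against GD12 was -0.40 (SE 0.40) on 101840_at and 0.42 (SE 0.44) on 101842_g_at, with limma adjusted p of 0.683 and 0.694. Without GD14 replicate 2, the lowest array of 101840_at, its difference was 0.07. Probe set 101841_at, which the array annotation gives the same source record as 101842_g_at, exceeded the filter intensity on 2 of 9 arrays. Its GD14 values (8.7, 9.4 and 14.6) lay above its GD13 values (5.5, 5.0 and 3.8), but with no filter the adjusted p was 0.809.

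The replicate number was examined for its part in the spread. The third array of a day was the highest on all 3 days for 2 of the 8 tested probe sets, Hbegf 92730_at and Egfr 101840_at, and for 11.8% of all tested probe sets. In a limma fit with day and replicate number, the replicate term had an unadjusted p under 0.05 for 3 of 8 members and for 22.4% of all probe sets. These were Pdgfra 160332_at (0.00309), Hbegf (0.0150) and Pdgfb (0.0448), and 0 of the 8 had an adjusted p under 0.05 (0.0907, 0.140 and 0.214), where 44 of all 9316 (0.472%) did. For Pdgfb the third arrays lay 1.30 above the first arrays on the log2 scale, and for Hbegf 0.40 above them. The third arrays also had the lowest actin ratio of their day, as given above, and the part of RNA or labelling quality in these differences was not tested. The bright Pdgfra probe set and Pdgfrb had unadjusted p of 0.920 and 0.954 for the same term.

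As a list, the 8 tested probe sets had a median log2 difference of -0.09 for GD14 against GD12, and all 9316 had -0.02. Their median absolute difference was 0.18, against 0.25 over all tested probe sets. Of the 8, 3 were higher and 5 lower on GD14 than on GD12. The profile across the 9 arrays closest to that of Pdgfrb, the member with the smallest F-test p, was that of Efl1, at a root-mean-square log2 difference of 0.103 after centring each profile. Pola1 (0.108) and Msl1 (0.115) followed, where the median over the 8383 other single-symbol probe sets was 0.388 and a flat profile lay at 0.236. These genes were picked as the closest of 8383, so a small distance was fixed by the choice. Efl1, Pola1 and Msl1 did not pass for GD14 against GD12 (limma adjusted p = 0.616, 0.300 and 0.397), nor did Pdgfrb.

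Other ligands and receptors of these families gave no adjusted p under 0.05 in limma either. Of the PDGF list only the members above had a probe set. Among EGF family ligands, Egf averaged 8.20 ± 3.86 on GD12, 19.5 ± 6.33 on GD13 and 11.3 ± 9.36 on GD14 (SD, n = 3 each; F-test adjusted p = 0.462 in limma), and Btc, Ereg and Nrg3 were under the filter. Erbb3, a neuregulin receptor of glia and epithelia, had 229.3, 181.8 and 193.6 at GD12, 147.0, 152.5 and 142.5 at GD13 and 171.9, 175.8 and 193.4 at GD14. All GD13 arrays of Erbb3 lay under all arrays of the other days, but the limma adjusted p was 0.297 for GD13 against GD12 (log2 -0.44). Erbb4 was under the filter.

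Over all the pathway lists (ligands, receptors, processing enzymes, relay, regulators and targets), 3 of 57 tested genes that are not members passed between GD12 and GD14, 2 higher and 1 lower, a share of 5.26% where 4.59% of all 6861 tested genes passed. Proteases and processing enzymes of the ligands had 0 of 7 past the threshold, with Furin, a proprotein convertase, the brightest at 378 ± 68.9 on GD14 and 276 ± 36.1 on GD12 (SD, n = 3 each; limma adjusted p = 0.251). Adaptors and receptor-proximal kinases had 0 of 18 (lowest adjusted p 0.163), where Shc1, an adaptor that links receptors to RAS, had a log2 difference of 0.20 for GD14 against GD12 (adjusted p = 0.674). The RAS and MAP kinase relay had 0 of 6. Its lowest adjusted p, 0.0904 in limma, was that of Map2k1, which had a log2 difference of 0.54. Nras, the brightest of this list, had -0.37 (adjusted p = 0.267).

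Among 10 negative regulators 1 fell and 0 rose between GD12 and GD14. Dusp6, a phosphatase that is induced by ERK signalling and inactivates ERK, had 917.2, 1006.5 and 842.0 at GD12, 707.0, 697.2 and 688.9 at GD13 and 520.0, 453.0 and 447.7 at GD14. The days did not overlap, which 18.5% of all tested probe sets showed for GD13 against GD12 and 13% for GD14 against GD13. Neither daily step of Dusp6 passed (limma adjusted p = 0.335 and 0.330). Dusp6 fell to 474 ± 40.3 on GD14, against 922 ± 82.4 on GD12 (SD, n = 3 each). The log2 difference was -0.96 (SE 0.14, limma adjusted p = 0.00715), and this call held under all 20 alternative settings. ERK is fed by many receptors, FGF receptors among them. The other 9 negative regulators did not pass, among them Errfi1, an inhibitor that binds EGF receptor family kinases, which had 135 ± 16.6 on GD14 and 145 ± 8.18 on GD12 (SD, n = 3 each).

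Immediate early targets are genes that growth factor signalling switches on within a short time. Of 14 tested, 2 were higher and 0 lower on GD14 than on GD12, and 1 was higher on GD13 than on GD12. Over all 6861 tested genes 4.59% passed for GD14 against GD12 and 0.714% for GD13 against GD12, in either direction. The list's median log2 difference for GD14 against GD12 was 0.62, where that of all 6861 genes was -0.006. Ier3, a regulator of cell survival, had 104.0, 118.3 and 82.2 on GD14, against 59.1, 38.2 and 45.3 on GD12, a log2 difference of 1.05 (SE 0.20, limma adjusted p = 0.0226). Klf4, a transcription factor of differentiating epithelium, had 320.3, 343.3 and 268.0 on GD14, against 197.6, 150.8 and 174.5 on GD12, a log2 difference of 0.82 (SE 0.18, adjusted p = 0.0397, and 0.0530 with the replicate number as a block). Neither gene's values overlapped between these days, which was so for 22.3% of all tested probe sets. Markers of some cell types were higher over the same days, and those of others were not. Of oral epithelium markers 5 of 11 tested rose and 0 fell, and the summed intensity of all 14 was 2275 to 2542 on GD14, against 1274 to 1508 on GD12. Of skeletal muscle markers 4 of 7 rose and 0 fell, with a sum of 2531 to 3867 on GD14, against 1189 to 1598 on GD12, and 4 of 8 macrophage and megakaryocyte markers rose, as given above. Of facial mesenchyme markers 1 of 13 rose (Col1a2) and 1 fell (Msx1), with a list median log2 difference of -0.38. Neuron and glia markers had 0 of 6 and 0 of 5 past the threshold, with medians of -0.70 and -0.15. The part of these lists in the Klf4 and Ier3 values was not tested.

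Egr2, a zinc finger transcription factor, was the immediate early gene that rose between GD12 and GD13. It had 45.3, 52.9 and 70.2 on GD13, against 15.2, 6.6 and 17.0 on GD12, and 35.7, 36.5 and 24.7 on GD14. The log2 difference for GD13 against GD12 was 1.94 (SE 0.30, limma adjusted p = 0.0298, and 0.0579 with the replicate number as a block), and 1 GD12 array lay under the filter intensity. For GD14 against GD13 the log2 difference of Egr2 was -0.74, which did not pass (limma adjusted p = 0.668). The Egr2 call was lost under 11 of 19 alternative settings, that of Klf4 under 13 of 20 and that of Ier3 under 6 of 20. Leaving out 1 array brought the adjusted p up to 0.119 for Egr2 (GD13 replicate 2), 0.134 for Klf4 and 0.0877 for Ier3 (GD14 replicate 1 for both). Single arrays whose omission ended a call were GD12 replicate 1, GD14 replicates 1 and 2 and any of GD13 for Egr2, any of GD12 and replicates 1 and 2 of both GD13 and GD14 for Klf4, and GD12 replicates 2 and 3 and GD14 replicates 1 and 2 for Ier3.

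**Figure D3:**
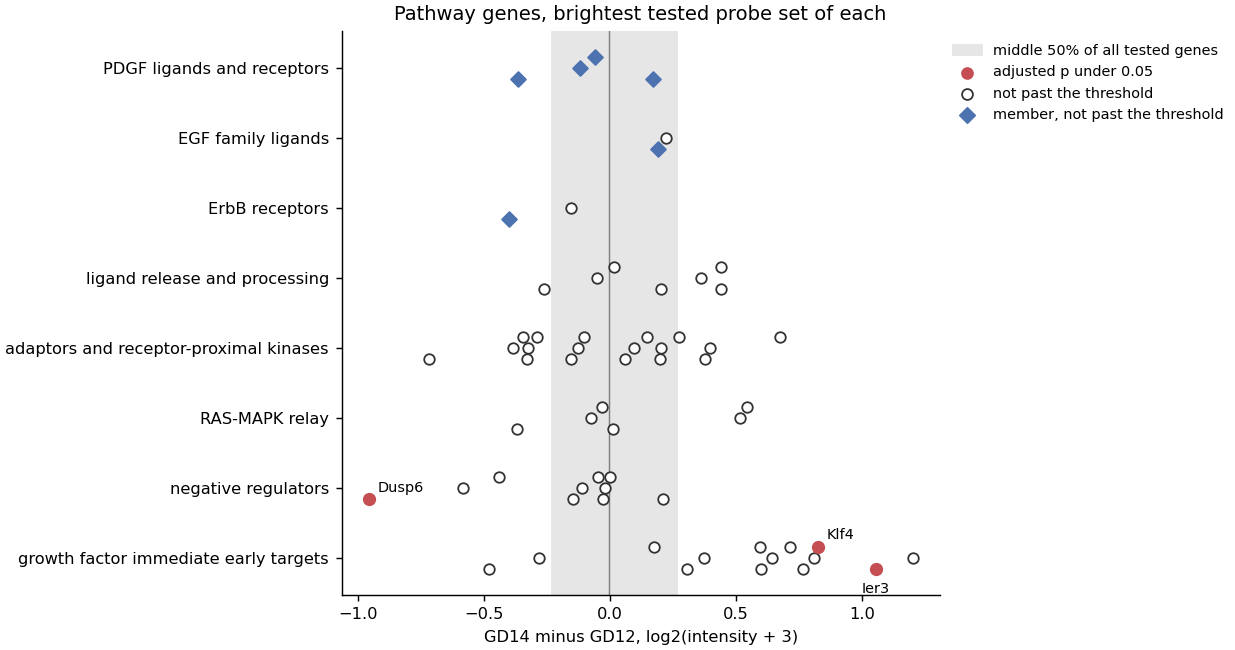
Difference of log2(intensity + 3), GD14 minus GD12, for the tested genes of 8 pathway lists, each by its brightest tested probe set, with a grey band for the middle 50% of all 6861 tested genes. Blue diamonds are members, red points passed the test (Dusp6 lower, Ier3 and Klf4 higher on GD14) and open points did not.

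**Figure D4:**
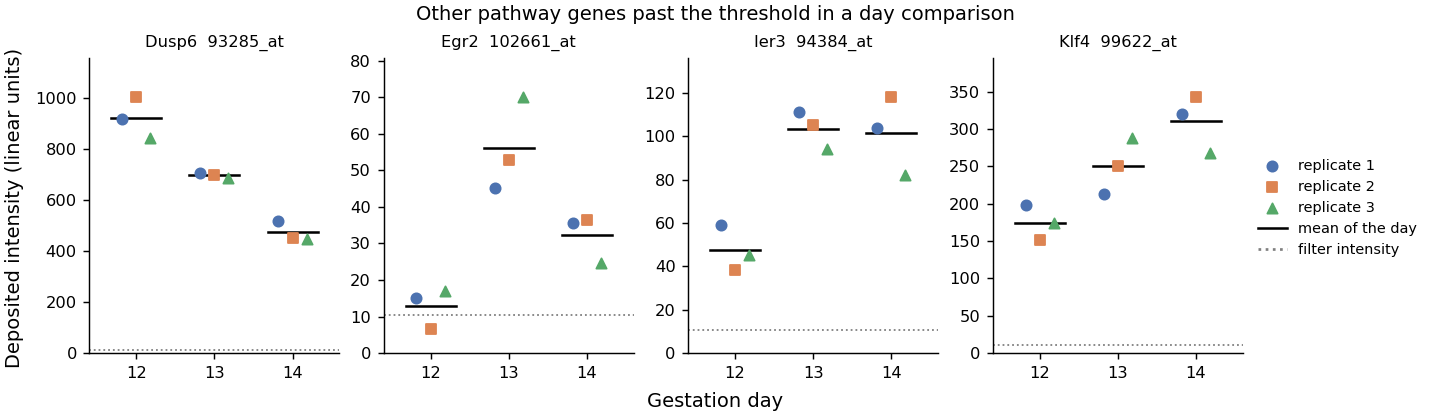
Deposited intensity (linear units, from 0) of Dusp6, Egr2, Ier3 and Klf4 against gestation day, 1 point per array, with symbols for the replicate number, a bar for the mean of the day and a dotted line at the filter intensity. Values of Dusp6 do not overlap between days, but neither daily step passed the test. Egr2 values on GD13 (45.3 to 70.2) lie above those of both other days, but its GD14 to GD13 difference did not pass.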

How the data were processed

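The data are the series' deposited value table of 1 linear intensity per probe set for 9 one-colour arrays (3 each of GD12, GD13 and GD14), grouped by the sample titles. The authors deposited these intensities scaled between arrays, as the values show: after trimming 2% of probe sets from each end, each of the 9 arrays averaged 150.1. The software and scaling target are not given in the sources used here. Of 12488 probe sets, 66 controls were left out. The array annotation gave 1 symbol for 10833 of the rest, several for 396 and none for 1193, and 10817 could be matched by gene ID to RefSeq genes of GRCm38.p6. The number of arrays, not a depth, limits the precision.

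Values were tested as log2(intensity + 3), 3 being the 10th percentile of all values, after leaving out probe sets at or under the 25th percentile of mean log2 value. limma 3.58.1 in R 4.3.3 fitted 3 group means over all 9 arrays. Variances were moderated over probe sets (6 residual plus 2.85 prior degrees of freedom). The code was first run on simulated arrays with planted changes, and the share of small changes found there is not given here. Benjamini-Hochberg adjustment ran over all 9316 probe sets, with a threshold of 0.05. Intervals are 95% and not adjusted. Folds are on the log2(intensity + 3) scale, which understates changes of dim genes.

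The members, the 8 pathway lists, the 8 marker lists and the tests were chosen with earlier results of these data known. All member probe sets were described. Of other pathway genes, those past the threshold in a day comparison were named, or otherwise the brightest of a list. A few more were named after their values were seen (Errfi1, Erbb3, Erbb4, Map2k1, the EGF family ligands under the filter, and the marker genes). Each such gene was taken by its brightest tested probe set. The reported day differences come from fits without the replicate number, although same-numbered arrays shared variation. Their deviations from the day means correlated at 0.189 to 0.420, and those of other numbers across days at -0.287 to -0.0169. The replicate block was an alternative, beside no filter and a stricter one at the median, 1 or 16 in place of the added 3, median scaling, quantile normalization, trend and robust variances, the actin ratio as a covariate, omission of each array or of replicate 3 on every day, and only the groups compared. Promoter windows came from the RefSeq table of GRCm38.p6. Python 3.11.15 with pandas 2.3.3, numpy 2.4.6 and matplotlib 3.10.9 made summaries and plots.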

Additional observations from a re-analysis of the deposited data

How the results depend on the processing

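Under the 20 alternative settings, 0 member probe sets passed in each comparison, also with the replicate block, whose lowest adjusted p among members was 0.323 (Pdgfrb, GD14 against GD12). The lowest adjusted p of a member under any setting was 0.193, for Hbegf with the actin ratio as a covariate. Of 465 log2 differences of members between days under these settings 40 had the opposite sign of the reported one, and 0 of the 465 were called, so no direction is claimed for them. Many of the 465 could not turn sign. A change of only the filter, variance model, replicate block or groups fitted, or omission of an array of a day not compared, leaves a difference as reported.

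The count over all probe sets for GD14 against GD12, 401 as reported, was 621 with the replicate block, 227 with only the groups compared and 178 to 394 without single arrays. For GD13 against GD12 it was 60 as reported, 94 with a filter at the median, 35 with no filter, 31 with only the groups compared, 10 without the 3 arrays numbered 3, 115 with trend and robust variances and 17 to 59 without single arrays. For GD14 against GD13 it was 4 as reported, 0 to 26 under the alternatives. The F-test count of 241 became 84 without the 3 arrays numbered 3, 369 with trend and robust variances and 88 to 239 without single arrays. The cause was not tested. Of the 4 called pathway genes, the replicate block ended the calls of Egr2 and Klf4 and kept those of Dusp6 and Ier3. The daily step difference was called for 0 probe sets as reported and for 1 or 2 with the replicate block, a filter at the median, 16 added or trend and robust variances. Signal near the filter intensity limits Pdgfb, Tgfa and Egfr, and leaving out 1 array turned the sign of the GD14 to GD12 difference for 6 of the 8 tested member probe sets, all except Pdgfrb and Egfr 101842_g_at.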
